A study of Mus musculus with 12 samples.

Results

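Carriers that move amino acids across membranes were examined in 7 solute carrier families, Slc1, Slc3, Slc6, Slc7, Slc36, Slc38 and Slc43, in MIN6 cells. MIN6, a mouse insulinoma line, secretes insulin in response to glucose and stands in for beta cells of the pancreas. A gene was a member when its symbol in the array annotation belonged to one of these families and its probe set carried exactly 1 symbol. Of several such probe sets, the brightest by its 12-array mean was taken. This gave 60 of the 19938 genes measured: 7 in Slc1, 2 in Slc3, 18 in Slc6, 15 in Slc7, 4 in Slc36, 11 in Slc38 and 3 in Slc43. No filter on dim signal was applied, so all 60 members were tested.

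The 12 arrays fell into 4 groups. The first was 4 arrays (numbered 1, 2, 5 and 7) from cells in Defined Conditions (DC), which is serum-free medium at 5% oxygen, labelled Hes3 siRNA. The second was 4 arrays (1 to 4) from cells in DC labelled scrambled siRNA, the control. The others were 2 arrays each from cells in Classic Conditions (CC), which is medium with serum at 20% oxygen, labelled Hes3 siRNA and scrambled siRNA. Cells of every group were transfected with siRNA, stated at 2 uM for the Hes3 siRNA, and were assayed 12 to 24 hours later, so no group is untransfected. The design asks how transcripts differ after Hes3 knockdown, Hes3 being a basic helix-loop-helix factor that represses transcription, and whether this depends on the culture conditions. The labels' protocols place all samples in a single experiment, so p-values here measure only the spread between these samples, which may be technical. DC and CC differ in serum and in oxygen at once, and the parts of these cannot be told apart.

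The Hes3 probe set read 7.37, 7.36, 7.38 and 7.25 in DC arrays labelled Hes3, against 7.10, 7.24, 7.19 and 7.22 in DC arrays labelled scrambled. It read 7.22 and 7.23 in CC arrays labelled Hes3, against 7.23 and 6.82 in CC arrays labelled scrambled. Its reading was thus not lower where the label says Hes3 siRNA (log2 difference 0.15 ± 0.0768, SE, limma adjusted p = 0.114 in DC, and 0.20 ± 0.109, adjusted p = 0.9996 in CC). All genes at that level were higher by a median of 0.21 in DC arrays labelled Hes3 than in DC arrays labelled scrambled, and whether Hes3 lies above background cannot be read, so these readings do not settle whether its mRNA was lowered. The siRNA groups are therefore named by their labels, and none of their differences is taken for a knockdown effect. Signals also spanned a narrower range in DC arrays labelled Hes3: their SD over probe sets was 1.76 to 1.80, against 1.82 to 1.85 in DC arrays labelled scrambled and 1.84 to 1.90 in the 4 CC arrays. Arrays 1 and 5 of that group had the narrowest range (1.76 and 1.78), and results that rest on them are given without them as well. Of 12 beta cell markers 10 were bright (in the top 25% of genes by signal), against none of the 4 acinar, 4 duct, 6 fibroblast and 7 macrophage or endothelial markers measured. The mean over the fibroblast list was 7.59 to 7.80 in DC arrays labelled Hes3, against 7.41 to 7.51 in DC arrays labelled scrambled, and the acinar list ran 7.34 to 7.62 against 7.10 to 7.27. The duct list ran 7.31 to 7.49 in DC arrays labelled Hes3, against 7.09 to 7.22 in DC arrays labelled scrambled, and the macrophage and endothelial list 7.05 to 7.18 against 6.91 to 6.98. In the CC arrays these 4 lists lay between 6.93 and 7.52. All genes with mean signals near these list means (6.84 to 7.79) were also higher in DC arrays labelled Hes3. Their medians against DC arrays labelled scrambled were 0.20 to 0.21. Of the other islet hormones, glucagon (Gcg) and somatostatin (Sst) were bright as well, while Ppy (8.79) and Ghrl (8.73) were not. The alpha cell marker Irx2 (8.33) and the delta cell marker Hhex (6.34) were not bright either. The part of these shifts in the results below was not tested. In bulk RNA, fewer cells of a type and less RNA per cell cannot be told apart.

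As background, amino acid carriers work as a relay. Sodium-coupled carriers such as Slc38a2 concentrate small neutral amino acids in the cell, and exchangers such as Slc7a5 trade these for leucine and other large neutral amino acids. Slc3a2 is the heavy chain that brings Slc7a5, Slc7a11 and related Slc7 light chains to the plasma membrane. Leucine and arginine that reach the cytosol or the lysosome are sensed by the mTORC1 growth pathway, in which the lysosomal carrier Slc38a9 acts as an arginine sensor. When amino acids run short, the transcription factor ATF4 raises many of these carriers, among them Slc7a11, Slc7a5, Slc3a2, Slc38a2, Slc7a1 and Slc1a4. In beta cells, arginine taken up by cationic carriers, and leucine and glutamine used in mitochondria, stimulate insulin secretion.

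Promoter sequence is shown for Slc7a11 and Slc1a4, which were lower in DC under both siRNA labels and hold a match to the motif TGATGNAA, where N is any base. These are the letters of the C/EBP-ATF response element that ATF4 binds, and they were searched on both strands in RefSeq windows (GRCm38.p6) from 250 bases before to 50 bases after each start. Of the 60 members, 43 had at least 1 window. A match stood in 4 of these 43 genes (9.30%), Slc7a11, Slc1a4, Slc6a21 and Slc7a7, against 1219 of 27025 genes with a window (4.51%). Of the 11 members lower in DC under both labels, 8 had a window and 2 of the 8 held a match; Slc1a5, Slc7a3 and Slc7a5 had none to search. Both sequences run 5′ to 3′ on the gene's own strand, which is the minus strand, with matches in capitals. The first is the 250 bases before the Slc7a11 start on chromosome 3 (chr3:50443614-50443863), and the second is 30 bases across the Slc1a4 start on chromosome 11 (chr11:20332699-20332728).
Slc7a11: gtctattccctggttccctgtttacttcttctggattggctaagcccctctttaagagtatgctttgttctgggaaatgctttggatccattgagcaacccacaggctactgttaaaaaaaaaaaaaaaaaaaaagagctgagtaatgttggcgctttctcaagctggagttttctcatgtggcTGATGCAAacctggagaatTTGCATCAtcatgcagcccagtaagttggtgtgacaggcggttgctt
Slc1a4: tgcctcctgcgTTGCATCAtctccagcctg
In Slc7a11 the 2 matches lay on opposite strands with 11 bases between them, and began 66 and 47 bases before the start. The Slc1a4 match began 4 bases before the start. A match describes letters only, and binding was not measured.

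Signal differed widely among the members, as the plot of levels by family shows. Called bright were genes in the top 25% of all 19938 by mean signal, at 9.26 log2 units or more. There were 24 bright members, or 40% of the 60, where the definition gives 25% of all genes. They were 7 of 11 Slc38 carriers, 7 of 15 in Slc7, 5 of 18 in Slc6, 2 of 4 in Slc36, 1 of 2 in Slc3, 1 of 3 in Slc43 and 1 of 7 in Slc1. Probe sets differ in how well their probes bind, so signal ranks probe sets and not amounts of mRNA. The closest members to the limit were Slc6a15 (9.31), Slc38a9 (9.33), Slc38a7 (9.34) and Slc38a6 (9.36) just inside, and Slc6a8 (9.19), Slc7a4 (9.02) and Slc1a5 (8.97) just outside. With the limit set within each group, 22 members were bright in DC arrays labelled Hes3, 24 in DC arrays labelled scrambled, 24 in CC arrays labelled Hes3 and 25 in CC arrays labelled scrambled. Slc1a5 joined in both CC groups, Slc6a15 and Slc38a9 dropped out in DC arrays labelled Hes3, and Slc38a7 dropped out in CC arrays labelled Hes3.

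**Figure D1:**
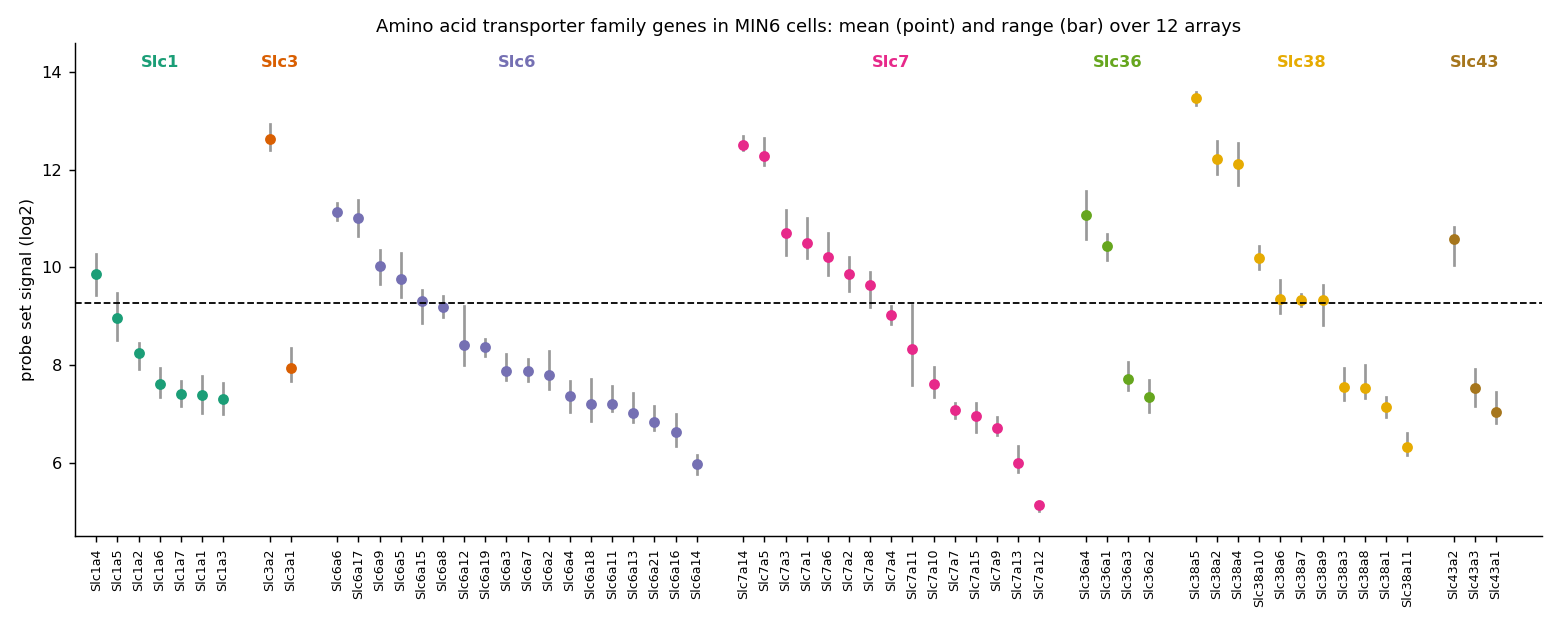
Mean signal over the 12 arrays (points, log2) and the range from the lowest to the highest array (bars) for the 60 members, by family and ordered by mean within each. The dashed line is the limit for bright genes (9.26): 24 members lie above it, led by Slc38a5 at 13.47, and Slc7a12 is lowest at 5.13.

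Of the bright members, the heavy chain Slc3a2 averaged 12.63 over the 12 arrays. Among the light chains that pair with it, Slc7a5 read 12.27, Slc7a6 10.21 and Slc7a8 9.63. The cationic carriers Slc7a1, Slc7a2 and Slc7a3 read 10.50, 9.87 and 10.71, and Slc7a14, a lysosomal member of the same branch, read 12.50. In Slc38, the glutamine carrier Slc38a5 read 13.47, the system A carriers Slc38a2 and Slc38a4 read 12.22 and 12.12, and Slc38a10, Slc38a6, Slc38a7 and Slc38a9 lay between 9.33 and 10.20. The system A carrier Slc38a1 was not bright (7.13). The neutral exchanger Slc1a4 read 9.86, the proton-coupled carriers Slc36a4 and Slc36a1 read 11.07 and 10.43, and the facilitated leucine carrier Slc43a2 read 10.58. Of Slc6, the taurine carrier Slc6a6 (11.13), the vesicular neutral carrier Slc6a17 (10.999), the glycine carriers Slc6a9 (10.02) and Slc6a5 (9.76) and the branched-chain carrier Slc6a15 (9.31) were bright.

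The remaining 36 members were not bright, and are called dim here, and 8 lay in the dimmest 25% of genes, below 6.98: Slc6a14, Slc6a16, Slc6a21, Slc7a9, Slc7a12, Slc7a13, Slc7a15 and Slc38a11. The glutamate carriers Slc1a1, Slc1a2, Slc1a3, Slc1a6 and Slc1a7 averaged 7.30 to 8.25. The monoamine carriers for noradrenaline, dopamine and serotonin, Slc6a2, Slc6a3 and Slc6a4, averaged 7.78, 7.88 and 7.36, and the GABA carriers Slc6a11 and Slc6a13 averaged 7.21 and 7.01. Slc3a1, the heavy chain for cystine and dibasic amino acid uptake in kidney, averaged 7.93, and its light chain Slc7a9 averaged 6.70. Whether signal at this level is above background cannot be read from the deposited values, which carry no detection call.

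Between culture conditions, with scrambled siRNA, most carriers that passed the test fell in DC. Set against CC arrays labelled scrambled, DC arrays labelled scrambled differed past the test (limma, adjusted p under 0.05) in 14 of 60 members, 12 lower and 2 higher, or 23.3% of members where 8.54% of all genes passed. The share lower was 20.0% of members and 5.45% of all genes, and the share higher was 3.33% and 3.09%. Of the 24 bright members 8 were lower and 2 higher, or 33.3% lower, where 11.9% of all bright genes were lower. Groups did not overlap for 31 members, where 27.9% of all genes had no overlap. The median log2 difference was -0.04 over the members and 0.02 over all genes, and over the bright members it was -0.24. Set against CC arrays labelled Hes3, DC arrays labelled Hes3 differed in 34 of 60 members, 19 lower and 15 higher, or 56.7% where 40.1% of all genes passed. Here 31.7% of members and 18.8% of all genes were lower, and 25% and 21.2% were higher. Of the bright members 16 were lower and 1 higher, or 66.7% lower, where 44.5% of all bright genes were lower. Groups did not overlap for 41 members, where 61.8% of all genes had no overlap. Without CC array 1 labelled Hes3 the count was 19 (3 higher and 16 lower), without CC array 2 it was 20 (2 higher and 18 lower), and without DC arrays 1 and 5 labelled Hes3 it was 24 (4 higher and 20 lower).

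Some markers of other cells moved with culture conditions. Glucagon (Gcg) averaged 11.56 in DC arrays labelled Hes3 and 11.65 in DC arrays labelled scrambled, against 12.62 and 12.57 in the CC arrays of the same labels. Irx2, the other measured alpha cell marker, was not lower in DC, at 8.51 and 8.24 against 8.23 and 8.23 in CC. The mean of these 2 of 4 alpha cell markers was 9.86 to 10.13 and 9.91 to 9.97 in these DC groups. It was 10.40 to 10.44 and 10.39 to 10.41 in CC, a difference carried by Gcg. The macrophage marker Cd68 averaged 8.93 and 9.02 in DC, against 9.59 and 9.46 in CC. Others of its list, Adgre1, Ptprc, Pecam1 and Cdh5, were higher in DC under both labels, and Csf1r and Tek under the Hes3 label alone. The mean over that list was 7.05 to 7.18 and 6.91 to 6.98 in DC, against 7.03 to 7.05 and 6.93 to 7.00 in CC. The part of these markers in the carrier differences was not tested.

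The comparisons of DC with CC under the scrambled label and under the Hes3 label share no arrays. Lower in both were 11 members, which is 91.7% of the 12 lower under the scrambled label and 57.9% of the 19 lower under the Hes3 label. They were the neutral exchangers Slc1a4 and Slc1a5, the cationic carriers Slc7a1 and Slc7a3, the light chains Slc7a5 and Slc7a11, the system A carrier Slc38a2, and Slc6a5, Slc6a9, Slc6a12 and Slc6a17 of Slc6. Among all genes, 959 were lower in both, which is 88.3% of 1086 and 25.5% of 3755. The leucine carrier Slc43a2 was the member higher in both, and no member changed in opposite directions. Past the test under the scrambled label alone were Slc3a1 (lower) and Slc7a2 (higher), and 22 members passed under the Hes3 label alone. The difference between the labels in the effect of DC passed the test for 0 of 60 members and 0 of 19938 genes (limma, lowest adjusted p = 0.177, 12 members and 3471 genes at an unadjusted p under 0.05). It was 4 members and 2056 genes without CC array 2 labelled scrambled. A call under 1 label alone is therefore not a difference between labels.

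**Figure D2:**
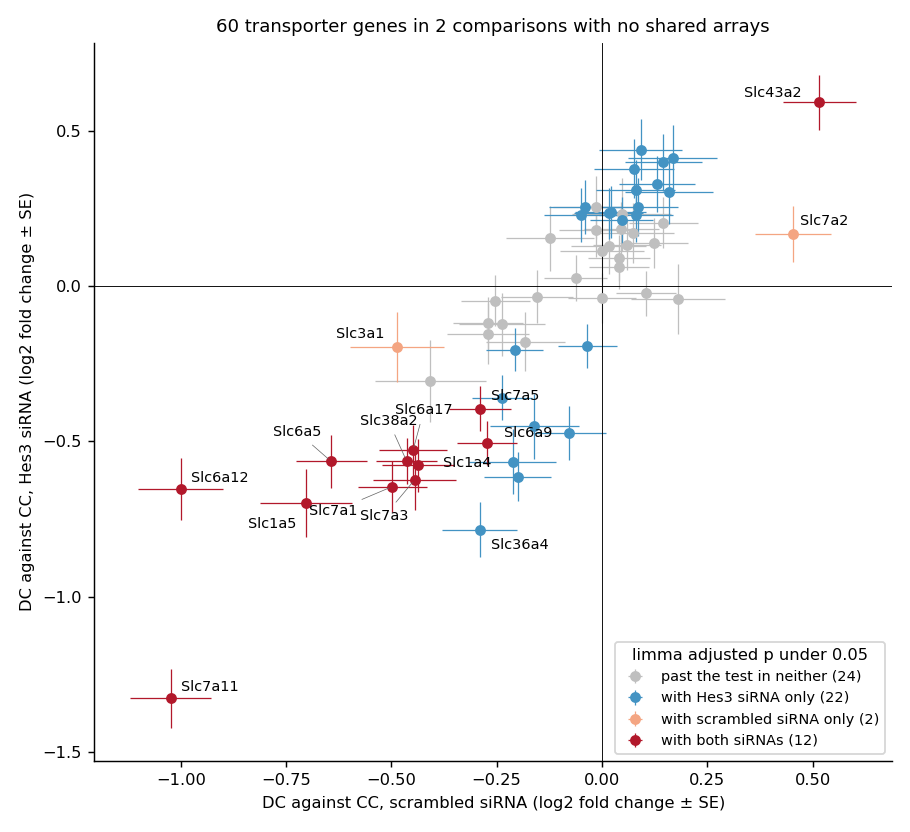
Log2 difference of DC against CC (± SE) for each of the 60 members, with scrambled siRNA (x axis) and with Hes3 siRNA (y axis). Red points passed the test under both labels (11 lower at bottom left, with Slc7a11 farthest, and Slc43a2 at top right), and blue points under the Hes3 label alone.

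Slc7a11, the cystine and glutamate exchanger that feeds glutathione synthesis, was lower in DC by more than any other member under the Hes3 label. It read 7.58, 7.73, 7.84 and 7.97 in DC arrays labelled Hes3, 8.14, 8.08, 8.07 and 8.05 in DC arrays labelled scrambled, 9.09 and 9.12 in CC arrays labelled Hes3, and 8.99 and 9.23 in CC arrays labelled scrambled. Every DC array lay below every CC array. The log2 difference of DC against CC was -1.02 ± 0.0957 (adjusted p = 7.48e-06) under the scrambled label and -1.33 ± 0.0957 (adjusted p = 4.43e-07) under the Hes3 label (SE, limma here and below). Under the scrambled label Slc6a12, described below, differed as much (-1.001 ± 0.0999), and without CC array 2 labelled scrambled the values were -0.90 for Slc7a11 and -1.15 for Slc6a12. The heavy chain Slc3a2, with which it pairs, read 12.41, 12.55, 12.54 and 12.60 in DC arrays labelled Hes3, 12.52, 12.60, 12.50 and 12.55 in DC arrays labelled scrambled, 12.93 and 12.84 in CC arrays labelled Hes3, and 12.77 and 12.79 in CC arrays labelled scrambled. Its groups did not overlap between DC and CC either. It missed the threshold under the scrambled label (-0.24 ± 0.0716, adjusted p = 0.0516) and was lower under the Hes3 label (-0.36 ± 0.0716, adjusted p = 0.00188), a call lost under cyclic loess normalization (-0.14 ± 0.0739, adjusted p = 0.183). Slc7a5, the leucine exchanger that shares this heavy chain, read 12.15, 12.21, 12.18 and 12.09 in DC arrays labelled Hes3, 12.11, 12.21, 12.13 and 12.18 in DC arrays labelled scrambled, 12.65 and 12.45 in CC arrays labelled Hes3, and 12.48 and 12.42 in CC arrays labelled scrambled. It was lower in DC, at -0.29 ± 0.0726 (adjusted p = 0.0188) under the scrambled label and at -0.39 ± 0.0726 (adjusted p = 0.00103) under the Hes3 label. Under the scrambled label its call was lost without any one of 4 arrays, with adjusted p from 0.0504 to 0.0825. Neither call held under quantile normalization (-0.25 and, under the Hes3 label, -0.21) or cyclic loess (-0.26 and -0.18), with adjusted p from 0.0648 to 0.133. Of the other light chains, Slc7a8 was lower under the Hes3 label (-0.45 ± 0.106, adjusted p = 0.00513), though not without CC array 1 labelled Hes3 (adjusted p = 0.0597). Its difference under the scrambled label was -0.16 ± 0.106. Slc7a6 passed in neither (-0.41 ± 0.132 and -0.30 ± 0.132).

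The cationic carriers for arginine and lysine divided. Slc7a1, the widespread CAT1 carrier, read 10.37, 10.30, 10.19 and 10.19 in DC arrays labelled Hes3, 10.34, 10.37, 10.33 and 10.41 in DC arrays labelled scrambled, 11.01 and 10.81 in CC arrays labelled Hes3, and 10.94 and 10.78 in CC arrays labelled scrambled. It was lower in DC under the scrambled label (-0.50 ± 0.0812, adjusted p = 0.000953) and under the Hes3 label (-0.65 ± 0.0812, adjusted p = 4.38e-05). Slc7a3, the CAT3 carrier, read 10.26, 10.43, 10.40 and 10.61 in DC arrays labelled Hes3, 10.63, 10.72, 10.53 and 10.65 in DC arrays labelled scrambled, 11.17 and 10.92 in CC arrays labelled Hes3, and 11.17 and 10.99 in CC arrays labelled scrambled. No DC array reached a CC array of the same label, and the differences were -0.44 ± 0.0983 (adjusted p = 0.00868) under the scrambled label and -0.62 ± 0.0983 (adjusted p = 0.000288) under the Hes3 label. Without CC array 1 labelled scrambled, the first of these missed the threshold (-0.36 ± 0.123, adjusted p = 0.0722). Slc7a2, the CAT2 carrier, ran the other way and read 9.68, 9.93, 9.90 and 9.62 in DC arrays labelled Hes3, 10.17, 10.14, 10.21 and 10.12 in DC arrays labelled scrambled, 9.70 and 9.52 in CC arrays labelled Hes3, and 9.74 and 9.67 in CC arrays labelled scrambled. It was higher in DC under the scrambled label (0.45 ± 0.0908, adjusted p = 0.00452), but not without CC array 2 labelled scrambled (adjusted p = 0.0639), and it did not pass under the Hes3 label (0.17 ± 0.0908, adjusted p = 0.138). The 2 differences for Slc7a2 did not differ past the test (interaction adjusted p = 0.273). Slc7a14 differed by -0.03 ± 0.0702 (adjusted p = 0.867) under the scrambled label and by -0.19 ± 0.0702 (adjusted p = 0.0408) under the Hes3 label, where its sign turned under cyclic loess normalization and the call was lost without either CC array.

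Slc1a4, Slc1a5 and Slc38a2, all sodium-dependent, were lower under both labels as well. Slc1a5, which exchanges glutamine for other neutral amino acids, read 8.63, 8.51, 8.76 and 9.04 in DC arrays labelled Hes3, 8.66, 8.81, 8.74 and 8.74 in DC arrays labelled scrambled, 9.46 and 9.41 in CC arrays labelled Hes3, and 9.48 and 9.40 in CC arrays labelled scrambled. All CC arrays lay above all DC arrays, and the differences were -0.70 ± 0.109 (adjusted p = 0.000634) under the scrambled label and -0.70 ± 0.109 (adjusted p = 0.000263) under the Hes3 label. Its relative Slc1a4, a carrier of alanine, serine and cysteine, read 9.75, 9.74, 9.67 and 9.43 in DC arrays labelled Hes3, 9.71, 9.76, 9.74 and 9.73 in DC arrays labelled scrambled, 10.27 and 10.17 in CC arrays labelled Hes3, and 10.14 and 10.21 in CC arrays labelled scrambled. It was lower, at -0.44 ± 0.0845 (adjusted p = 0.00355) under the scrambled label and at -0.58 ± 0.0845 (adjusted p = 0.00016) under the Hes3 label, and without CC array 2 labelled scrambled the first became -0.40 ± 0.109 (adjusted p = 0.0534). Slc38a2, the system A carrier induced by amino acid shortage, read 11.90, 12.001, 12.11 and 11.92 in DC arrays labelled Hes3, 12.10, 12.14, 12.07 and 12.16 in DC arrays labelled scrambled, 12.59 and 12.50 in CC arrays labelled Hes3, and 12.58 and 12.58 in CC arrays labelled scrambled. The CC arrays stood above all DC arrays, with differences of -0.46 ± 0.0732 (adjusted p = 0.000736) under the scrambled label and -0.56 ± 0.0732 (adjusted p = 5.87e-05) under the Hes3 label. Slc38a4, the other bright system A carrier, read 11.89, 11.96, 11.68 and 11.88 in DC arrays labelled Hes3, 12.12, 12.10, 12.13 and 12.12 in DC arrays labelled scrambled, 12.54 and 12.39 in CC arrays labelled Hes3, and 12.30 and 12.34 in CC arrays labelled scrambled. It did not pass under the scrambled label (-0.20 ± 0.0794, adjusted p = 0.158) and was lower under the Hes3 label (-0.61 ± 0.0794, adjusted p = 5.67e-05). The glutamine carrier Slc38a5 passed in neither, at 0.10 ± 0.0714 and -0.02 ± 0.0714.

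In Slc6, Slc6a12 differed most under the scrambled label. It is the betaine and GABA carrier that cells raise under osmotic stress, and read 8.25, 8.001, 8.35 and 8.32 in DC arrays labelled Hes3, 8.11, 8.02, 8.002 and 8.08 in DC arrays labelled scrambled, 8.93 and 8.83 in CC arrays labelled Hes3, and 9.20 and 8.90 in CC arrays labelled scrambled. DC arrays were lower throughout, at -1.001 ± 0.0999 (adjusted p = 1.45e-05) under the scrambled label and -0.65 ± 0.0999 (adjusted p = 0.00022) under the Hes3 label. The glycine carrier Slc6a5 read 9.42, 9.38, 9.52 and 9.71 in DC arrays labelled Hes3, 9.59, 9.65, 9.62 and 9.55 in DC arrays labelled scrambled, 10.06 and 10.08 in CC arrays labelled Hes3, and 10.21 and 10.28 in CC arrays labelled scrambled, and was lower, at -0.64 ± 0.0843 (adjusted p = 0.000161) under the scrambled label and -0.56 ± 0.0843 (adjusted p = 0.000188) under the Hes3 label. Slc6a17, a carrier of neutral amino acids into synaptic vesicles, read 10.65, 10.70, 10.86 and 10.89 in DC arrays labelled Hes3, 10.87, 10.92, 10.84 and 10.97 in DC arrays labelled scrambled, 11.38 and 11.22 in CC arrays labelled Hes3, and 11.36 and 11.33 in CC arrays labelled scrambled. Its DC and CC arrays did not overlap, and it was lower, at -0.45 ± 0.0818 (adjusted p = 0.00223) under the scrambled label and -0.53 ± 0.0818 (adjusted p = 0.000248) under the Hes3 label. The glycine carrier Slc6a9 read 9.81, 9.80, 9.79 and 9.66 in DC arrays labelled Hes3, 10.01, 10.01, 10.03 and 9.98 in DC arrays labelled scrambled, 10.35 and 10.19 in CC arrays labelled Hes3, and 10.30 and 10.26 in CC arrays labelled scrambled. It was lower, at -0.27 ± 0.0716 (adjusted p = 0.0249) under the scrambled label and -0.50 ± 0.0716 (adjusted p = 0.000121) under the Hes3 label, and the first was lost without any one of 5 arrays (adjusted p from 0.0505 to 0.112) and under quantile and cyclic loess normalization (0.09 and 0.0735). The taurine carrier Slc6a6 missed the threshold under the scrambled label (-0.21 ± 0.0679, adjusted p = 0.0752). It was lower under the Hes3 label (-0.20 ± 0.0679, adjusted p = 0.0286), where its sign turned under quantile normalization and the call was lost without either CC array. The branched-chain carrier Slc6a15 differed little under the scrambled label (-0.08 ± 0.0863, adjusted p = 0.714) and was lower under the Hes3 label (-0.47 ± 0.0863, adjusted p = 0.000968).

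Among facilitated and proton-coupled carriers, 1 was higher in DC under both labels. Slc43a2, a sodium-independent carrier of leucine and other large neutral amino acids, read 10.72, 10.80, 10.81 and 10.83 in DC arrays labelled Hes3, 10.74, 10.79, 10.79 and 10.65 in DC arrays labelled scrambled, 10.36 and 10.04 in CC arrays labelled Hes3, and 10.31 and 10.15 in CC arrays labelled scrambled. Every DC array lay above every CC array, and the differences were 0.52 ± 0.0872 (adjusted p = 0.00123) under the scrambled label and 0.59 ± 0.0872 (adjusted p = 0.000168) under the Hes3 label. Slc36a4, a high-affinity carrier of proline and tryptophan linked to mTORC1, read 10.60, 10.75, 10.58 and 10.81 in DC arrays labelled Hes3, 11.11, 11.003, 11.05 and 11.19 in DC arrays labelled scrambled, 11.56 and 11.38 in CC arrays labelled Hes3, and 11.30 and 11.46 in CC arrays labelled scrambled. DC arrays labelled Hes3 were lowest, DC arrays labelled scrambled lay above them and all CC arrays were higher still, without overlap. Its difference missed the threshold under the scrambled label (-0.29 ± 0.0884, adjusted p = 0.0536) and passed under the Hes3 label (-0.78 ± 0.0884, adjusted p = 1.71e-05). The lysosomal amino acid exporter Slc36a1 passed in neither comparison (-0.27 ± 0.0973 and -0.15 ± 0.0973). The dim heavy chain Slc3a1 read 7.73, 7.68, 8.14 and 7.74 in DC arrays labelled Hes3, 7.74, 7.98, 7.81 and 7.70 in DC arrays labelled scrambled, 8.04 and 7.998 in CC arrays labelled Hes3, and 8.35 and 8.24 in CC arrays labelled scrambled. It was lower in DC under the scrambled label (-0.49 ± 0.112, adjusted p = 0.0113) but not under the Hes3 label (-0.20 ± 0.112, adjusted p = 0.159), and the first was lost without CC array 1 labelled scrambled (adjusted p = 0.0661).

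**Figure D3:**
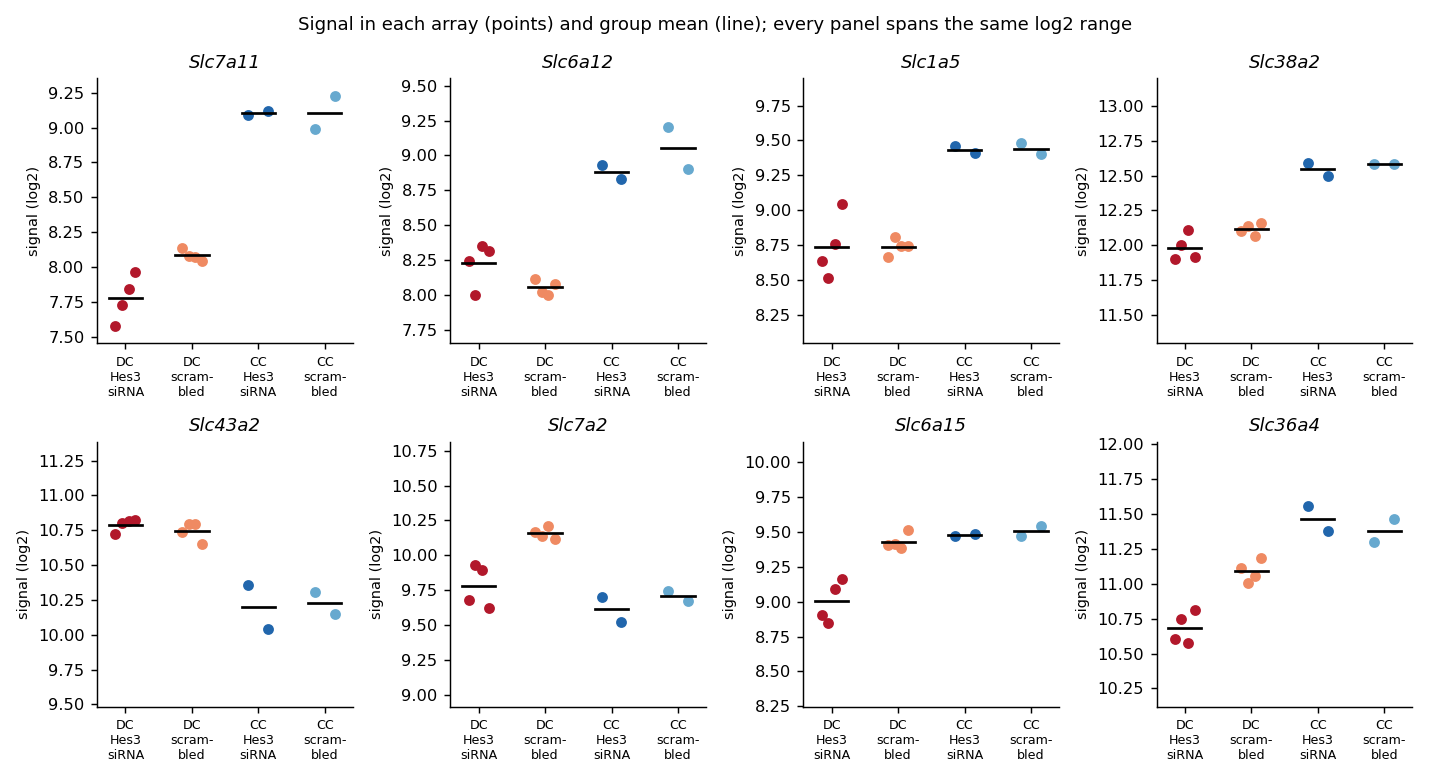
Log2 signal of 8 members in each array (points) with the group mean (line), in DC arrays labelled Hes3 and scrambled and in CC arrays labelled Hes3 and scrambled; each panel spans the same log2 range. Slc7a11, Slc6a12, Slc1a5 and Slc38a2 are lower in both DC groups, Slc43a2 is higher in both, Slc7a2 is highest in DC arrays labelled scrambled, and Slc6a15 and Slc36a4 are lowest in DC arrays labelled Hes3.

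Dim members made up 14 of the 15 that were higher in DC under the Hes3 label. Among them was Slc43a3, a purine nucleobase carrier, which read 7.92, 7.70, 7.85 and 7.79 in DC arrays labelled Hes3, 7.29, 7.50, 7.51 and 7.41 in DC arrays labelled scrambled, 7.35 and 7.40 in CC arrays labelled Hes3, and 7.52 and 7.15 in CC arrays labelled scrambled. DC arrays labelled Hes3 stood above all others, at 0.44 ± 0.0981 (adjusted p = 0.00391) against CC and the same label. The kidney neutral carrier Slc6a18 read 7.48, 7.30, 7.70 and 7.31 in DC arrays labelled Hes3, 7.12, 7.19, 7.20 and 7.14 in DC arrays labelled scrambled, 6.997 and 7.08 in CC arrays labelled Hes3, and 7.14 and 6.85 in CC arrays labelled scrambled, a difference of 0.41 ± 0.106 (adjusted p = 0.00859). The glutamine carrier Slc38a3 read 7.95, 7.60, 7.78 and 7.65 in DC arrays labelled Hes3, 7.51, 7.57, 7.58 and 7.40 in DC arrays labelled scrambled, 7.41 and 7.28 in CC arrays labelled Hes3, and 7.36 and 7.38 in CC arrays labelled scrambled, a difference of 0.40 ± 0.0917 (adjusted p = 0.00464). In both, each DC array labelled Hes3 was above each CC array. The noradrenaline carrier Slc6a2 read 8.28, 7.92, 7.93 and 8.09 in DC arrays labelled Hes3, 7.56, 7.72, 7.71 and 7.68 in DC arrays labelled scrambled, 7.68 and 7.67 in CC arrays labelled Hes3, and 7.67 and 7.51 in CC arrays labelled scrambled, and differed by 0.38 ± 0.0954 (adjusted p = 0.00794). Slc6a16, a carrier with no assigned substrate, read 6.93, 6.73, 6.999 and 6.74 in DC arrays labelled Hes3, 6.61, 6.47, 6.53 and 6.65 in DC arrays labelled scrambled, 6.52 and 6.52 in CC arrays labelled Hes3, and 6.54 and 6.33 in CC arrays labelled scrambled, and differed by 0.33 ± 0.0909 (adjusted p = 0.0126). DC arrays labelled Hes3 were again highest. The glial glutamate carrier Slc1a3 read 7.63, 7.39, 7.59 and 7.37 in DC arrays labelled Hes3, 7.20, 7.18, 7.28 and 7.28 in DC arrays labelled scrambled, 7.16 and 7.21 in CC arrays labelled Hes3, and 7.30 and 7.003 in CC arrays labelled scrambled, and differed by 0.31 ± 0.0941 (adjusted p = 0.0193). Slc7a15 read 7.14, 6.98, 7.20 and 7.23 in DC arrays labelled Hes3, 6.86, 7.10, 6.96 and 6.80 in DC arrays labelled scrambled, 6.73 and 6.93 in CC arrays labelled Hes3, and 6.92 and 6.62 in CC arrays labelled scrambled, and differed by 0.30 ± 0.104 (adjusted p = 0.032).

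The other dim members higher in that comparison had smaller differences. The GABA carrier Slc6a11 read 7.57, 7.29, 7.34 and 7.27 in DC arrays labelled Hes3, 7.06, 7.18, 7.08 and 7.15 in DC arrays labelled scrambled, 7.11 and 7.12 in CC arrays labelled Hes3, and 7.25 and 7.06 in CC arrays labelled scrambled, a difference of 0.25 ± 0.0876 (adjusted p = 0.0325). The proton-coupled carrier Slc36a2 read 7.70, 7.50, 7.58 and 7.35 in DC arrays labelled Hes3, 7.31, 7.17, 7.27 and 7.24 in DC arrays labelled scrambled, 7.26 and 7.31 in CC arrays labelled Hes3, and 7.29 and 7.03 in CC arrays labelled scrambled, a difference of 0.25 ± 0.0942 (adjusted p = 0.0435). Slc6a3, Slc6a7, Slc1a6, Slc7a10 and Slc7a9 were higher by 0.24, 0.23, 0.23, 0.23 and 0.21, with adjusted p from 0.0347 to 0.049. Among all genes that were not bright, 25.2% were higher and 10.3% lower in this comparison, against 38.9% and 8.33% of the 36 dim members. The median difference of all such genes varied with level. It was 0.09 at a mean signal of 4.95, 0.20 at 7.11 to 7.79 and -0.11 at 9.14. Many dim members lay near 7.11 to 7.79, so these shares are not matched for level. With each array centred on its median, the 15 higher and 19 lower members became 5 and 23, and the median of all genes moved to -0.02, against 0.09 as deposited. Slc43a3, Slc38a3, Slc6a2, Slc6a18 and Slc43a2 stayed past the test after that centring. Only Slc43a3 and Slc43a2 of the 15 kept the call without either CC array labelled Hes3.

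Between siRNA labels in DC, 23 dim carriers rose and 11 carriers, 9 of them bright, fell. In DC arrays labelled Hes3, 34 of 60 members passed the test against DC arrays labelled scrambled, 23 higher and 11 lower, or 56.7% of members where 47.2% of all genes passed. The share higher was 38.3% of members and 28.9% of all genes, and the share lower was 18.3% in both. No overlap between the groups' arrays was found for 31 of the 60 members, where 40.9% of all genes had none. The direction followed the signal, among carriers as among all genes. None of the 24 bright members was higher and 9 (37.5%) were lower, where 2.39% of all 4985 bright genes were higher and 40.9% lower, so the lower share is near the background. Of the 36 dim members 23 (63.9%) were higher and 2 (5.56%) lower, where 37.8% and 10.7% of all 14953 such genes were. The median log2 difference was -0.11 over bright members and 0.24 over dim members, against -0.15 over all bright genes and 0.13 over the other genes. Among those other genes the median varied with level. It was 0.08 at a mean signal of 4.95, 0.21 at 7.11 to 7.79 and -0.10 at 9.14. Many dim members lay near 7.11 to 7.79, so the comparison with all dim genes is not matched for level. The median over bright members was 0.02 under quantile and under cyclic loess normalization, so its sign rests on the scaling. With each array centred on its median the 23 higher and 11 lower members became 17 and 15, and under cyclic loess 5 and 5. Those 10 were Slc6a15, Slc7a2, Slc7a11, Slc36a4 and Slc38a9 (lower), and Slc1a1, Slc1a6, Slc6a2, Slc6a3 and Slc43a3 (higher), which passed under quantile normalization too. For Slc38a9 this holds for its brighter probe set alone, and the other moved in the opposite direction, as described below. Without DC arrays 1 and 5 labelled Hes3 only 3 members passed, where 331 of all genes (1.66%) did: Slc6a15 (-0.42 ± 0.082, adjusted p = 0.036), Slc7a2 (-0.38 ± 0.0855, adjusted p = 0.0485) and Slc6a2 (0.34 ± 0.0761, adjusted p = 0.0485).

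**Figure D4:**
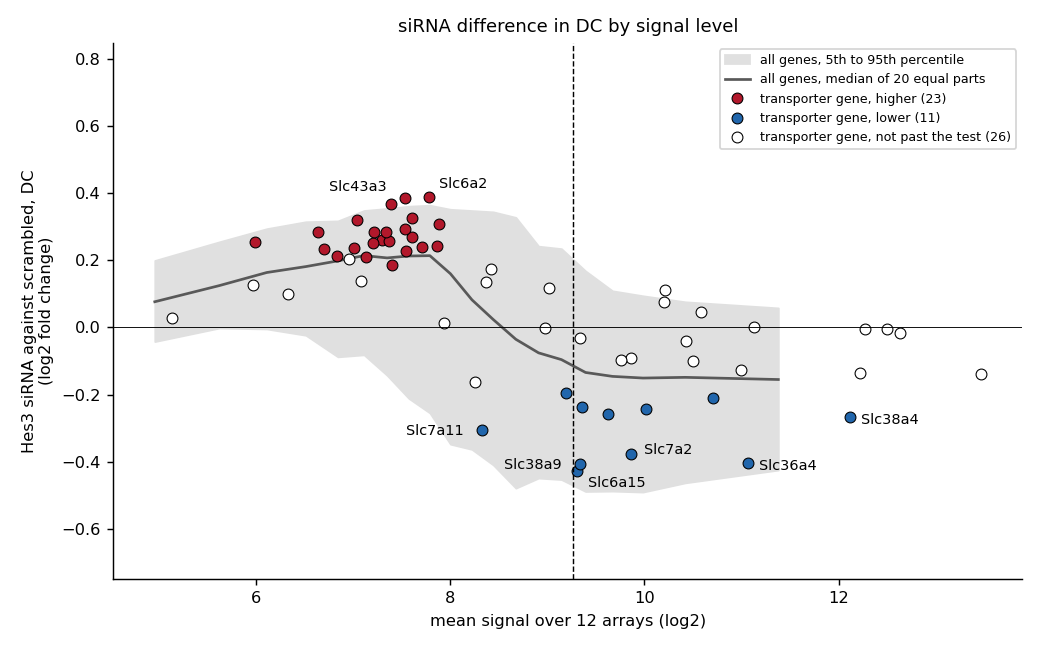
Log2 difference of DC arrays labelled Hes3 against DC arrays labelled scrambled (y axis) by mean signal over 12 arrays (x axis) for the 60 members; the grey band and line give the 5th to 95th percentile and the median of all genes in 20 parts of equal size, and the dashed line is the limit for bright genes. The 23 members that were higher (red) all lie left of that limit, and 9 of the 11 that were lower (blue) lie right of it.

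Among the members lower in DC arrays labelled Hes3 was Slc6a15. This sodium-dependent carrier of leucine, isoleucine, valine and proline read 8.90, 8.85, 9.09 and 9.16 in DC arrays labelled Hes3, 9.41, 9.41, 9.39 and 9.51 in DC arrays labelled scrambled, 9.47 and 9.48 in CC arrays labelled Hes3, and 9.47 and 9.54 in CC arrays labelled scrambled. DC arrays labelled Hes3 lay below all 8 others, at -0.43 ± 0.0705 (adjusted p = 0.00244), and this call held in all 17 alternatives run. Slc36a4 was lower, at -0.40 ± 0.0721 (adjusted p = 0.00302) and Slc7a2, at -0.38 ± 0.0742 (adjusted p = 0.00357), with no overlap between the 4 arrays of each DC group in either. Slc7a11 was lower, at -0.30 ± 0.0781 (adjusted p = 0.0086), so that it was lowest in DC arrays labelled Hes3. Without arrays 1 and 5 it differed by -0.24 ± 0.0823 (adjusted p = 0.0979), and Slc36a4 by -0.31 ± 0.0784 (adjusted p = 0.0582). Slc38a4 was lower, at -0.27 ± 0.0649 (adjusted p = 0.00714) and the glycine carrier Slc6a9, at -0.24 ± 0.0584 (adjusted p = 0.00676), again with no overlap. The light chain Slc7a8 read 9.19, 9.51, 9.25 and 9.63 in DC arrays labelled Hes3, 9.68, 9.68, 9.57 and 9.70 in DC arrays labelled scrambled, 9.89 and 9.80 in CC arrays labelled Hes3, and 9.73 and 9.90 in CC arrays labelled scrambled, and was lower, at -0.26 ± 0.0864 (adjusted p = 0.0248) in DC with overlapping arrays. Slc38a6, a poorly described glutamine carrier, read 9.07, 9.20, 9.09 and 9.35 in DC arrays labelled Hes3, 9.49, 9.43, 9.37 and 9.37 in DC arrays labelled scrambled, 9.40 and 9.31 in CC arrays labelled Hes3, and 9.75 and 9.45 in CC arrays labelled scrambled, and was lower, at -0.24 ± 0.0768 (adjusted p = 0.0221). Slc7a3 was lower, at -0.21 ± 0.0803 (adjusted p = 0.0428) and the creatine carrier Slc6a8, at -0.20 ± 0.0656 (adjusted p = 0.0254). The calls of Slc7a8, Slc38a6, Slc7a3 and Slc6a8 were each lost without at least 2 single arrays, with adjusted p from 0.0595 to 0.133.

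Slc3a2, Slc7a5, Slc1a5, Slc38a2 and Slc38a5 did not pass between siRNA labels in DC. The difference was -0.02 ± 0.0585 for Slc3a2, -0.0042 ± 0.0593 for Slc7a5, -0.0022 ± 0.0888 for Slc1a5, -0.14 ± 0.0598 for Slc38a2 and -0.14 ± 0.0583 for Slc38a5. The 4 values of each DC group overlapped in all 5. Slc1a4, Slc7a1, Slc43a2 and Slc36a1 differed by -0.09, -0.10, 0.05 and -0.04, and did not pass either.

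The 23 members that were higher in DC arrays labelled Hes3 were all dim. Slc6a2 and Slc43a3 rose by 0.39 ± 0.0779 (adjusted p = 0.00381) and 0.39 ± 0.0801 (adjusted p = 0.00414), and their values per array stand above. The neuronal glutamate carrier Slc1a1 read 7.77, 7.41, 7.65 and 7.49 in DC arrays labelled Hes3, 7.01, 7.37, 7.23 and 7.23 in DC arrays labelled scrambled, 7.38 and 7.47 in CC arrays labelled Hes3, and 7.35 and 7.32 in CC arrays labelled scrambled, and rose by 0.37 ± 0.085 (adjusted p = 0.00591). Another glutamate carrier, Slc1a6, read 7.93, 7.85, 7.77 and 7.66 in DC arrays labelled Hes3, 7.34, 7.58, 7.49 and 7.50 in DC arrays labelled scrambled, 7.57 and 7.57 in CC arrays labelled Hes3, and 7.60 and 7.45 in CC arrays labelled scrambled, and rose by 0.33 ± 0.0711 (adjusted p = 0.00495). The DC groups were apart in all 4 of these carriers. The leucine carrier Slc43a1 read 7.45, 6.94, 7.44 and 7.16 in DC arrays labelled Hes3, 6.81, 6.91, 6.95 and 7.05 in DC arrays labelled scrambled, 6.99 and 7.05 in CC arrays labelled Hes3, and 6.87 and 6.89 in CC arrays labelled scrambled, and rose by 0.32 ± 0.0963 (adjusted p = 0.0165) with overlap, which was lost without any one of 3 arrays (adjusted p from 0.0557 to 0.06). The dopamine carrier Slc6a3 read 8.23, 8.03, 8.12 and 7.94 in DC arrays labelled Hes3, 7.68, 7.87, 7.72 and 7.81 in DC arrays labelled scrambled, 7.84 and 7.84 in CC arrays labelled Hes3, and 7.78 and 7.72 in CC arrays labelled scrambled, and rose by 0.31 ± 0.0685 (adjusted p = 0.00521). Slc38a8 read 7.99, 7.63, 7.73 and 7.54 in DC arrays labelled Hes3, 7.33, 7.48, 7.52 and 7.39 in DC arrays labelled scrambled, 7.44 and 7.50 in CC arrays labelled Hes3, and 7.48 and 7.40 in CC arrays labelled scrambled, and rose by 0.29 ± 0.0834 (adjusted p = 0.0128). DC arrays labelled Hes3 lay above all other DC arrays in Slc6a3 and Slc38a8. Slc6a18, Slc36a2 and Slc6a16 rose by 0.29, 0.29 and 0.28. The other 13 were Slc1a3, Slc1a7, Slc6a4, Slc6a7, Slc6a11, Slc6a13, Slc6a21, Slc7a9, Slc7a10, Slc7a13, Slc36a3, Slc38a1 and Slc38a3, which rose by 0.19 to 0.27. Of all 23, only Slc6a21 and Slc43a1 had overlapping DC arrays. Of all 34 calls in this comparison, 22 held without each of the 8 DC arrays in turn. Lost without at least 1 array were those of Slc7a3, Slc7a8, Slc38a6 and Slc6a8 among the lower members, and of Slc1a7, Slc6a4, Slc6a13, Slc6a18, Slc6a21, Slc38a1, Slc38a3 and Slc43a1 among the higher ones.

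In CC, no member passed between siRNA labels. The test gave 0 of 60 members and 0% of all genes (limma, lowest adjusted p = 0.9996), with 3 members and 415 genes at an unadjusted p under 0.05. Member differences ran between -0.28 (Slc3a1) and 0.23 (Slc36a3), with a median of 0.04, against 0.02 over all genes. For carriers that passed in DC, the CC differences were -0.03 ± 0.0997 for Slc6a15, 0.09 ± 0.102 for Slc36a4, -0.09 ± 0.105 for Slc7a2, -0.0024 ± 0.11 for Slc7a11 and 0.09 ± 0.11 for Slc6a2. With 2 arrays a group, standard errors were larger than in DC. The differences between DC and CC in the effect of the label did not pass for these 5, with interaction values of -0.40 ± 0.122 (adjusted p = 0.198) for Slc6a15, -0.49 ± 0.125 (adjusted p = 0.177) for Slc36a4, -0.29 ± 0.128 (adjusted p = 0.273) for Slc7a2, -0.30 ± 0.135 (adjusted p = 0.271) for Slc7a11 and 0.30 ± 0.135 (adjusted p = 0.271) for Slc6a2.

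For Slc38a9, the lysosomal arginine sensor, the 2 probe sets disagreed; this was singled out after its values were seen. The brighter probe set, which stands for the gene, read 8.83, 8.98, 8.92 and 9.27 in DC arrays labelled Hes3, 9.42, 9.39, 9.29 and 9.52 in DC arrays labelled scrambled, 9.63 and 9.50 in CC arrays labelled Hes3, and 9.60 and 9.63 in CC arrays labelled scrambled. It was lower in DC arrays labelled Hes3 than in DC arrays labelled scrambled (-0.41 ± 0.0842, adjusted p = 0.00412) and than in CC arrays labelled Hes3 (-0.56 ± 0.103, adjusted p = 0.000976). The dimmer probe set read 8.68, 8.59, 8.62 and 8.67 in DC arrays labelled Hes3, 8.46, 8.51, 8.38 and 8.40 in DC arrays labelled scrambled, 8.45 and 8.28 in CC arrays labelled Hes3, and 8.53 and 8.31 in CC arrays labelled scrambled. In a fit over all 35556 probe sets it was higher in the same comparisons, by 0.20 ± 0.0642 (adjusted p = 0.0348) and 0.28 ± 0.0786 (adjusted p = 0.0263). The brighter one was lower there, at -0.41 ± 0.0898 (adjusted p = 0.0167) and -0.56 ± 0.11 (adjusted p = 0.0063). With the mean of both, neither difference passed (-0.10 and -0.14), so no direction is given for the gene. The other member with 2 probe sets was Slc38a1, whose brighter one was higher in DC arrays labelled Hes3 than in DC arrays labelled scrambled (0.21 ± 0.0678, adjusted p = 0.0385), while the dimmer one did not pass (0.07 ± 0.0506, adjusted p = 0.249).

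**Figure D5:**
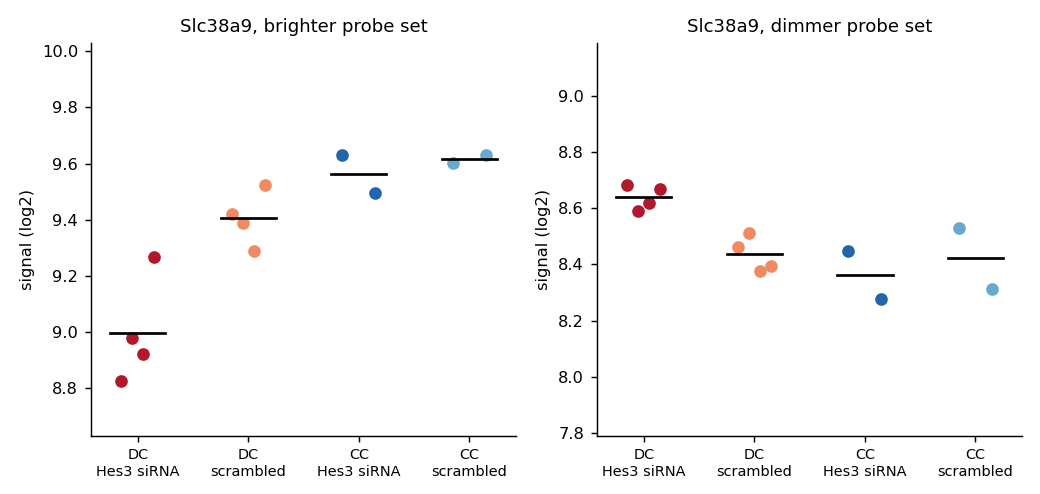
Log2 signal of the 2 Slc38a9 probe sets in each array (points) with group means (lines). In DC arrays labelled Hes3 the brighter probe set (left) is lowest of the 4 groups and the dimmer one (right) is highest; both panels span the same log2 range.

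Genes that act with these carriers were read from 4 lists. Of the ATF4 and amino acid response list, 23 of 24 genes were measured. With the scrambled label, 9 were lower and 0 higher in DC than in CC, led by the stress protein Nupr1 (-0.94 ± 0.111), the serine synthesis enzyme Psat1 (-0.54 ± 0.106), the alanine transaminase Gpt2 (-0.53 ± 0.0817) and the glycine enzyme Shmt2 (-0.49 ± 0.0988). Without CC array 2 labelled scrambled this count was 3. With the Hes3 label, 16 were lower and 1 higher in DC than in CC, with Psat1 at -1.08 ± 0.106, Shmt2 at -1.01 ± 0.0988, Nupr1 at -0.91 ± 0.111 and Chac1, which degrades glutathione, at -0.88 ± 0.134. Without CC array 2 labelled Hes3 it was 11 lower and 0 higher. Between labels in DC 8 were lower and 0 higher, with Shmt2 at -0.42 ± 0.0807, Psat1 at -0.42 ± 0.0867, the leucine sensor Sesn2 at -0.40 ± 0.0857 and Gpt2 at -0.39 ± 0.0667, and 3 were lower without arrays 1 and 5 labelled Hes3 or 5 without array 4 labelled scrambled. The list's medians were -0.25, -0.34 and -0.11 in these comparisons, against 0.02, 0.09 and 0.06 over all genes. Of the 23, 12 were bright, and all bright genes had medians of -0.04, -0.19 and -0.15. The shares lower were 39.1%, 69.6% and 34.8% of the list, where 5.45%, 18.8% and 18.3% of all genes were lower. Of its 12 bright genes 5, 12 and 7 were lower, where 11.9%, 44.5% and 40.9% of all bright genes were. Under quantile and cyclic loess normalization 5 were lower between labels in DC, and 11 and 12 for DC against CC under the Hes3 label.

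Of the aminoacyl-tRNA synthetases, which charge tRNA with amino acids, 17 of 20 were measured. There 1 was lower in DC under the scrambled label, Cars, which the ATF4 list also holds (-0.25 ± 0.0719). That call was lost without any one DC array of that label. Under the Hes3 label 13 were lower in DC, led by Tars (-0.63 ± 0.116), Nars (-0.57 ± 0.0846), Wars (-0.53 ± 0.089) and Hars (-0.50 ± 0.0955). The 13 became 7 without CC array 1 labelled Hes3 and 5 without CC array 2. Between labels in DC 8 were lower, led by Tars (-0.42 ± 0.0949), Rars (-0.38 ± 0.0985), Hars (-0.37 ± 0.078) and Yars (-0.27 ± 0.0623), and none was without arrays 1 and 5 labelled Hes3. Leaving out array 1 or 5 labelled Hes3, or array 1, 3 or 4 labelled scrambled, gave 5. The synthetases had medians of -0.13 and -0.33 for DC against CC under the scrambled and the Hes3 label, and -0.17 between labels in DC. Of the 17, 15 were bright. The shares lower were 5.88%, 76.5% and 47.1%, where 5.45%, 18.8% and 18.3% of all genes were lower. Of the 15 bright synthetases 1, 11 and 7 were lower, where 11.9%, 44.5% and 40.9% of all bright genes were. The 13 became 7 under quantile and under cyclic loess normalization (medians -0.14 and -0.15), and the 8 between labels in DC became 2 under both (medians -0.04 and -0.05) and 14 with arrays centred on their median.

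Of 27 genes of mTORC1 amino acid sensing 26 were measured. In DC arrays labelled scrambled 4 were higher and 0 lower than in CC: the leucine sensor relatives Sesn1 (0.44 ± 0.0819) and Sesn3 (0.44 ± 0.104), the kinase Mtor (0.32 ± 0.0826) and the lysosomal scaffold subunit Lamtor4 (0.29 ± 0.0734). This became 2 higher and 2 lower without CC array 1 labelled scrambled, and 2 higher and 0 lower without CC array 2 or without DC array 2 or 3 of that label. In DC arrays labelled Hes3 4 were higher and 7 lower than in CC, led by the activating GTPase Rheb (-1.04 ± 0.144), Sesn2, which the ATF4 list also holds (-0.69 ± 0.105), and the Rag GTPases Rraga (-0.48 ± 0.111) and Rragb (-0.45 ± 0.112). It became 0 higher and 2 lower without CC array 2 labelled Hes3, and 1 higher and 5 lower without CC array 1. Between labels in DC 1 was higher and 11 lower, led by Rraga (-0.49 ± 0.0905), Rheb (-0.43 ± 0.118), Sesn3 (-0.41 ± 0.0847) and the GATOR subunit Mios (-0.40 ± 0.0691), and 1 was lower without arrays 1 and 5. The medians were 0.01, -0.05 and -0.12 in the same order of comparisons. With the scrambled label 15.4% were higher and 0% lower in DC, where 3.09% and 5.45% of all genes were. Under the Hes3 label 15.4% were higher and 26.9% lower in DC, where 21.2% and 18.8% of all genes were, and the split became 7 higher and 6 lower under quantile and cyclic loess normalization and 1 and 9 with arrays centred on their median. Between labels in DC 3.85% were higher and 42.3% lower, where 28.9% and 18.3% of all genes were. Of the 26, 14 were bright, and 7 of these 14 were lower, where 40.9% of all bright genes were. Other carriers and partners outside the families had 19 of 21 entries measured. Of these entries, Tmem27 and Cltrn are an old and a current symbol of 1 gene, so only 1 of them can be measured. There 3 were lower in DC under the scrambled label: Cltrn, the collectrin that carries Slc6 neutral carriers to the membrane (-1.70 ± 0.144), the aromatic amino acid carrier Slc16a10 (-0.88 ± 0.0804) and the lysosomal cationic carrier Slc66a1 (-0.39 ± 0.0773). Under the Hes3 label 6 were lower, with Cltrn at -2.17 ± 0.144, Slc16a10 at -1.14 ± 0.0804, the lysosomal cystine carrier Ctns at -0.53 ± 0.135 and the mitochondrial glycine carrier Slc25a38 at -0.44 ± 0.0796, and 4 were higher. This became 4 lower and 2 higher without CC array 1 labelled Hes3, and 4 lower and 0 higher without CC array 2. Between labels in DC 7 were higher and 4 lower, led by Cltrn (-0.44 ± 0.117), the vesicular GABA carrier Slc32a1 (0.32 ± 0.0877), the mitochondrial glutamate carrier Slc25a18 (0.31 ± 0.0659) and the vesicular glutamate carrier Slc17a6 (0.31 ± 0.0728), and none passed without arrays 1 and 5. The medians here were -0.05, -0.10 and 0.09. Under cyclic loess 0 were higher and 5 lower under the Hes3 label, and 1 higher and 3 lower between labels in DC; under quantile normalization the splits were 0 and 4, and 6 and 2. On the deposited values 15.8% were lower under the scrambled label, where 5.45% of all genes were. Under the Hes3 label 21.1% were higher and 31.6% lower, where 21.2% and 18.8% of all genes were. The shares between labels in DC were 36.8% higher and 21.1% lower, where 28.9% and 18.3% of all genes were. Of the 19 measured, 6 were bright. In CC, none of the 4 lists had a gene past the test between siRNA labels (limma, adjusted p = 0.9996 at lowest). The smallest unadjusted p belonged to Atf3 (-0.19 ± 0.0932) and Ddit4 (-0.20 ± 0.0983), Eprs (-0.12 ± 0.0786) and Nars (0.11 ± 0.0976), Castor2 (-0.20 ± 0.0883) and Mtor (-0.15 ± 0.0954), and Slc17a8 (0.27 ± 0.115) and Slc16a10 (0.15 ± 0.0928).

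The 12 members that passed in no comparison were Slc1a2, Slc6a14, Slc6a19, Slc7a4, Slc7a6, Slc7a7, Slc7a12, Slc36a1, Slc38a5, Slc38a7, Slc38a10 and Slc38a11, of which 5 were bright. Slc38a5, the brightest probe set of the families, stayed between 13.32 and 13.59 over all 12 arrays.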

How the data were processed

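RNA of 12 MIN6 samples was measured on Affymetrix whole-transcript mouse arrays, from 250 ng of RNA per the labels' protocols. The authors deposited 1 log2 signal value per probe set and array (35556 probe sets, values from 3.94 to 14.4), and their summarization and normalization are not given in the sources used here. Probe sets were named through the platform's annotation of 2016: 21789 had 1 symbol, 1621 several and 12146 none, and those with 1 symbol gave 19938 genes, of which 999 had several probe sets and kept the one with the highest mean. Of the 21789 probe sets with 1 symbol, 21698 matched a current Entrez record, and none of these differed in symbol. No column of per-sample values was left unused, and no 2 arrays held the same values.

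One mean per group was fitted over all genes and all 12 arrays by lmFit and eBayes of limma 3.58.1, under R 4.3.3, with 8 residual degrees of freedom, and p-values were adjusted over 19938 genes by Benjamini and Hochberg at a threshold of 0.05. Errors beside log2 differences are limma's standard errors. The fit was tested on simulated data. Named are all bright members, all members past the test, with values per array for up to 10 in each direction per comparison, a set of central carriers whatever their result, and up to 4 genes per list and comparison. The lists cover ATF4 targets, mTORC1 amino acid sensing, cytosolic aminoacyl-tRNA synthetases and other carriers and partners. Members and lists were chosen with earlier results of these data known. Alternatives were quantile, median-centred and cyclic loess values, genes under the 40th percentile of signal left out, eBayes with trend and robust, probe sets averaged per gene, the replicate number as a block, a fit restricted to the groups compared, each array left out in turn and, chosen after seeing the data, DC arrays 1 and 5 labelled Hes3 left out together. Tables and figures used Python 3.11.15 with pandas 2.3.3 and matplotlib 3.10.9.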

Additional observations from a re-analysis of the deposited data

Results flagged for a closer look

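In 4 of 120 groups of 4 arrays looked at (3.33%), 1 array stood far from the rest by Dixon's test at its 95% critical value, which chance alone gives in about 1 of 20 groups. Slc3a1 read 8.14 in DC array 5 labelled Hes3, against 7.68 to 7.74 in the rest of that group. Slc6a21 read 6.86 in DC array 4 labelled scrambled, against 6.73 to 6.74 in the rest, and Slc7a12 read 5.01 on the same array, against 5.16 to 5.19. Slc36a1 read 10.51 in DC array 2 labelled scrambled, against 10.33 to 10.36 in the rest. Slc7a12 and Slc36a1 passed the test in no comparison.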

How the results depend on the processing

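The comparison that moved most was that of siRNA labels in DC. Its 34 members became 14 with quantile and 10 with cyclic loess normalization, 15 with the dimmest genes left out (36 members tested, at 7.67 log2 units or more), 3 without DC arrays 1 and 5 labelled Hes3, and 24 to 38 with each array left out in turn. For DC against CC under the Hes3 label, the 34 became 22 with cyclic loess and 19 to 36 with each array left out. Quantile normalization split them into 6 higher and 18 lower and cyclic loess into 5 and 17, where 15 and 19 passed on the deposited values. For DC against CC under the scrambled label the 14 ran from 10 to 13 with each array left out. They became 18 with arrays centred on their median, 19 in the fit restricted to the groups compared and 16 with the dimmest genes left out. The difference between labels in the effect of DC passed for 0 to 4 members with each array left out, the 4 without CC array 2 labelled scrambled. Between labels in CC, 0 members passed in every alternative run. Under the Hes3 label the sign turned for Slc6a6 with quantile normalization (0.0097) and for Slc7a14 with cyclic loess (0.0237); the cause was not tested. Called in every alternative run were 15 of 34 members for DC against CC under the Hes3 label, 8 of 14 under the scrambled label and 1 of 34 between labels in DC. With 2 arrays in each CC group, the number of arrays limits the precision, and signal above background is not recorded.

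DC and CC groups share the array numbers 1 and 2 alone. Deviations of same-numbered arrays from their group means correlated at -0.37 and -0.33 between the DC groups. Between the CC groups they correlated at 0.25, where 2 arrays a group give both numbers the same value. Between DC and CC under the same label they ran from -0.44 to 0.07. These values do not settle whether the numbers pair samples, and the main fit used no pairing. With the replicate number as a block, 3 members passed between labels in DC, 22 for DC against CC under the Hes3 label and 9 under the scrambled label. It also left between labels in DC 1 ATF4 gene, 1 mTORC1 gene, no synthetase and no other carrier.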
